A study of Mus musculus with 12 samples.

Results

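Heart muscle makes most of its energy by burning fatty acids, and 34 genes of fatty acid uptake, storage and oxidation were followed through experimental infarction and its treatment in mice. The genes were taken by symbol, each symbol was matched to a single gene of the deposited count table, and all 34 were found among the 56647 genes with a value in every library. All 34 also passed the filter on low counts, so all are among the 9505 genes tested. The groups were 4 mice with a ligated left coronary artery and 5′-(N-ethylcarboxamido)adenosine (NECA), a stable adenosine analogue, delivered locally into the infarct (NECA-treated MI mice), 3 mice with the ligation alone (MI mice), and 3 mice labelled both sham and vehicle (sham vehicle mice). All were wild type, and total RNA of myocardial tissue was sequenced from its 3′ ends. For the MI mice the labels mention no vehicle and no delivery, so if they had none, the effects of NECA and of delivering it cannot be told apart, and the ligation is mixed with a lack of vehicle. No source used here gives strain, sex, age or time after ligation, and nothing says whether the hearts were taken whole or as pieces.

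Fatty acids reach the cardiomyocyte bound to albumin or are cut from circulating triglyceride at the vessel wall, cross the membrane with the help of transporters, and are activated to acyl-CoA. The carnitine shuttle carries the acyl group into the mitochondrion, where β-oxidation removes acetyl units in a repeated cycle of dehydrogenation, hydration, dehydrogenation and thiolysis. Nuclear receptors of the PPAR family, which sense fatty acids, switch on many genes of the pathway, and a failing or injured heart is known to burn less fat and more glucose.

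The 10 libraries compared, 1 per mouse, held 959840 to 1330259 counts, and levels are given as counts per 1000000 counts of a library (CPM), listed in the order of the mouse numbers. MI mice 2 and 3 each had a 1st library, of 30745429 and 27130817 counts, and a 2nd library of the common depth, which was used. The 1st libraries have values for 306 genes that the others lack and lack 101 that the others have, and no source used here says whether both libraries of a mouse came from the same RNA. The 9 cardiomyocyte marker genes, from Myh6 to Tnnt2, were detected in every library and summed to 5.35% to 7.18% of counts, so heart muscle was present in all. Some mice differed in other tissue. MI mouse 3 had 11460 CPM of 8 fibroblast markers and 1165 CPM of 10 macrophage markers, against 595 to 4680 CPM and 214 to 819 CPM in the other 9 mice. Sham vehicle mouse 3 had 1966 CPM of 10 adipocyte markers, against 340 to 887 CPM in the other 9 mice, with Adipoq at 108.5 CPM against 0 to 23.1 CPM. The 5 atrial markers summed to 3831 CPM in MI mouse 3 and 7305 CPM in sham vehicle mouse 3, against 67.8 to 293 CPM in the other 8 mice. In MI mouse 3 all of it was Nppa, a natriuretic peptide gene that stressed ventricles also express, with the other 4 markers at 0, while sham vehicle mouse 3 had all 5, among them Myl4 at 1346 CPM and Bmp10 at 881 CPM. The 8 skeletal muscle markers summed to 752 CPM in NECA-treated MI mouse 4, against 168 to 466 CPM in the other 9 mice, where most of the sum was Acta1, and Myh4 stood at 97.9 CPM, against 0 to 4.12 CPM. MI mouse 2 also held some skeletal muscle transcripts, with Myh1 at 16.5 CPM, Myh2 at 15.4 CPM and Tnnt3 at 12.4 CPM. The remaining mice had at most 0.86, 0 and 1.63 CPM of these. Since fat cells also express Lpl, Cd36, Plin2 and Angptl4, values of these genes in sham vehicle mouse 3 stand beside those marker levels. The part of other cell types in any difference below was not tested, and in bulk tissue fewer cardiomyocytes and less RNA per cardiomyocyte cannot be told apart.

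No member of the pathway passed the threshold in any of the 3 comparisons, at a Benjamini-Hochberg adjusted p under 0.05 over all 9505 genes in edgeR's quasi-likelihood test. The smallest adjusted p of a member was 0.79 in NECA-treated MI against MI mice, 0.36 in MI against sham vehicle mice and 0.84 in NECA-treated MI against sham vehicle mice. Few genes passed at all. Of the 9505 tested genes, the share past the threshold was 0% (0 genes) in NECA-treated MI against MI mice, 0.0736% (7) in MI against sham vehicle mice and 0.0105% (1) in NECA-treated MI against sham vehicle mice. The data instead describe how far the 34 genes moved between mice, and much of that movement lay in 1 MI mouse.

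**Figure D1:**
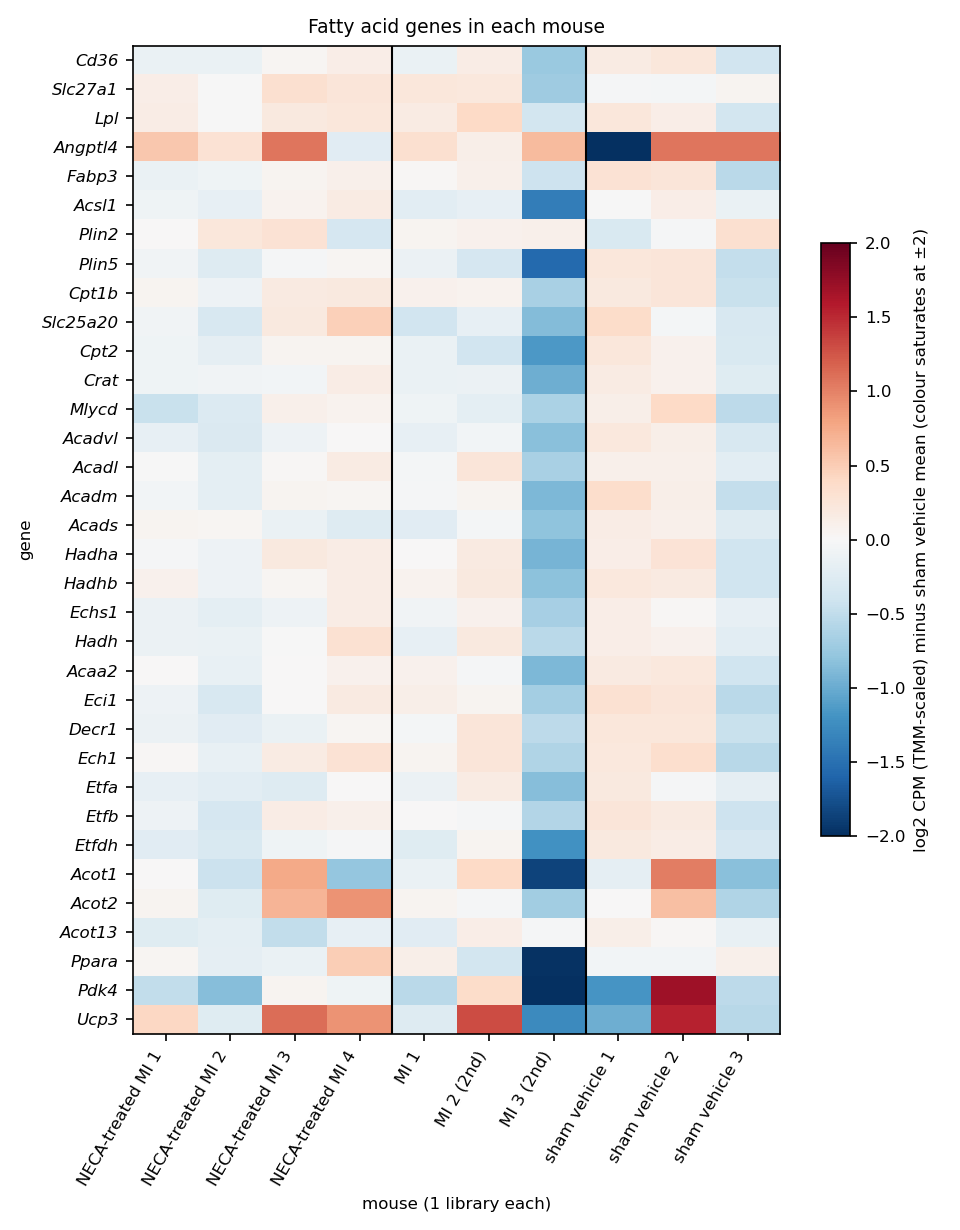
Level of the 34 genes (rows, in the order of their roles) in each of the 10 mice (columns), as log2 CPM after TMM scaling minus the mean of the sham vehicle mice, with the colour saturating at 2 in either direction. The column of MI mouse 3 is blue in nearly every row, the lowest of 10 mice in 30 of 34 genes on this scale, while Angptl4, Acot1, Pdk4 and Ucp3 vary widely between mice of a group.

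As a share of counts, the 34 genes together made up 1.75%, 1.70%, 1.87% and 1.90% in NECA-treated MI mice, 1.79%, 1.85% and 1.26% in MI mice, and 1.80%, 1.91% and 1.48% in sham vehicle mice. The group means were 1.81% ± 0.09 (SD, n = 4), 1.63% ± 0.32 (SD, n = 3) and 1.73% ± 0.22 (SD, n = 3). The ranges overlapped, and the lowest values belonged to MI mouse 3 and sham vehicle mouse 3. Set against the summed counts of the 9 cardiomyocyte markers, the members held 26.3, 26.8, 27.9 and 27.5 counts per 100 marker counts in NECA-treated MI mice, 28.1, 29.0 and 23.6 in MI mice, and 25.1, 26.6 and 24.3 in sham vehicle mice. MI mouse 3 was again the lowest and sham vehicle mouse 3 the next, but on this scale the gap to the other mice was smaller. The 1st libraries gave 33.5 for MI mouse 2 and 22.4 for MI mouse 3, so the low value of MI mouse 3 appeared in both of its libraries. This scale depends on the markers chosen. Myh6, the marker with most counts, was low in MI mouse 3, at 15500 CPM against 23900 to 29340 CPM in the other libraries compared. Myl2 and Mb were highest in MI mouse 3 among those libraries, at 6924 and 9760 CPM. The ratio without Myh6 was not computed, so how far the smaller gap rests on Myh6 was not tested.

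**Figure D2:**
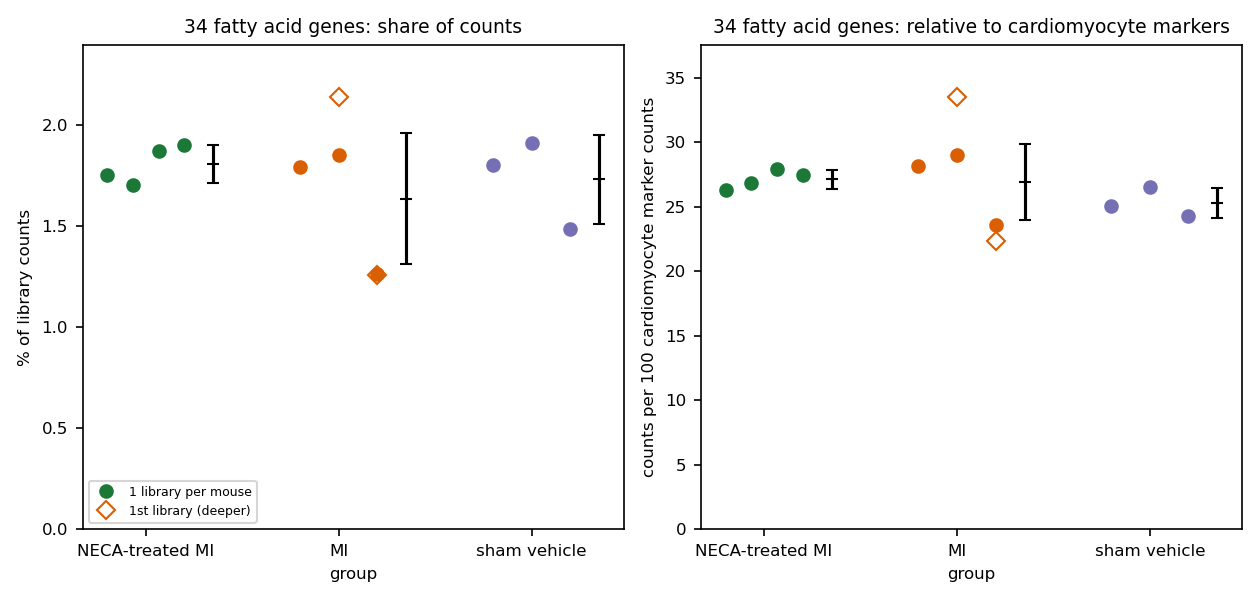
Summed counts of the 34 genes in each mouse, as a percent of library counts (left) and per 100 counts of 9 cardiomyocyte markers (right). Filled circles are the 10 libraries compared, open diamonds the deeper 1st libraries of MI mice 2 and 3, and the bars beside each group its mean ± SD (n = 4, 3 and 3). MI mouse 3 lies at 1.26% and 23.6, below all other mice in both panels, in the library compared and in its 1st library.

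The uptake and storage genes had 0 of 8 members past the threshold in each comparison. Their fitted differences between NECA-treated MI and MI mice were largest for Acsl1 and Plin5. That of Angptl4 was uncertain, with a log2 fold change of 0.15 ± 0.65 (SE) and a 95% interval of -1.25 to 1.55. Lpl, the lipase that frees fatty acids from circulating triglyceride, had 3651, 3435, 3776 and 3726 CPM in NECA-treated MI mice, 3732, 4043 and 2866 CPM in MI mice and 3413, 3350 and 2777 CPM in sham vehicle mice. Fabp3, which carries fatty acids through the cytosol, had 2318, 2495, 2613 and 2608 CPM in NECA-treated MI mice, 2573, 2521 and 2112 CPM in MI mice and 2733, 2774 and 1877 CPM in sham vehicle mice. The groups overlapped for both genes, and both were among the 7 for which MI mouse 3 was not the lowest. For NECA-treated MI against MI mice, Lpl gave a log2 fold change of 0.04 ± 0.19 (SE), with a 95% interval of -0.36 to 0.44, and Fabp3 gave 0.07 ± 0.20, with an interval of -0.34 to 0.48.

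Cd36, the main membrane transporter of long-chain fatty acids in the heart, had 782, 815, 874 and 900.3 CPM in NECA-treated MI mice, 782, 883 and 569 CPM in MI mice and 846, 924 and 703 CPM in sham vehicle mice. Slc27a1, another transporter, ranged over 109 to 199 CPM. MI mouse 3 was lowest for each, at 569 and 109 CPM, and its 1st library, at 554 and 129 CPM, lay below the 9 other mice as well. The remaining MI mice lay within the range of the other groups for both genes.

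Acsl1, which activates long-chain fatty acids to acyl-CoA, had 577, 570.1, 638 and 665 CPM in NECA-treated MI mice, 529, 507 and 260.5 CPM in MI mice and 539, 625 and 601 CPM in sham vehicle mice. By share of counts all 3 MI mice lay below the mice of both other groups, while after TMM scaling they overlapped with NECA-treated MI mice. Acsl1 was the only member whose TMM-scaled levels in MI mice all lay below those in sham vehicle mice, as those of 7.12% of all tested genes did. Its log2 fold change was -0.50 ± 0.24 (SE, unadjusted p = 0.051) in MI against sham vehicle mice and 0.50 ± 0.23 (unadjusted p = 0.041) in NECA-treated MI against MI mice, and without MI mouse 3 these became -0.20 and 0.19.

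Plin5, which coats lipid droplets where they touch mitochondria, had 81.1, 74.8, 83.9 and 84.8 CPM in NECA-treated MI mice, 79.1, 62.8 and 31.3 CPM in MI mice and 88.3, 94.0 and 66.0 CPM in sham vehicle mice. Plin2, the general droplet coat protein, had 30.9 to 58.9 CPM over all mice, with the highest value in sham vehicle mouse 3. MI mouse 3 was the lowest of all mice for Plin5 and not for Plin2. Angptl4, a secreted inhibitor of Lpl, had 9.54, 8.13, 14.5 and 4.71 CPM in NECA-treated MI mice, 7.99, 6.17 and 11.5 CPM in MI mice and 0.00, 13.5 and 15.7 CPM in sham vehicle mice. With 0 to 20 counts per library, Angptl4 was near the detection limit, and the 0 counts of sham vehicle mouse 1 allow a level of up to 2.57 CPM, taken as 3 counts.

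The carnitine shuttle held the members of smallest p in both comparisons with MI mice, although none of the 5 passed the threshold. Slc25a20, the carnitine-acylcarnitine exchanger of the inner membrane, had 120.1, 105, 144 and 169.5 CPM in NECA-treated MI mice, 96.8, 105 and 76.1 CPM in MI mice and 143, 113 and 108 CPM in sham vehicle mice. Cpt2, which returns the acyl group to CoA inside the mitochondrion, had 173, 170.0, 190.0 and 184 CPM in NECA-treated MI mice, 168, 131 and 91.7 CPM in MI mice and 189.5, 180.4 and 159.5 CPM in sham vehicle mice. By share of counts, MI mouse 2 and NECA-treated MI mouse 2 had almost the same Slc25a20 level, and the highest Cpt2 value of MI mice lay just under the lowest of NECA-treated MI mice. After TMM scaling, all 3 groups overlapped for both genes.

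Crat, which buffers acetyl-CoA as acetylcarnitine, had 417, 440.0, 424 and 473 CPM in NECA-treated MI mice, 407, 383 and 252 CPM in MI mice and 438, 434 and 404 CPM in sham vehicle mice. All 4 NECA-treated MI mice were above all 3 MI mice, also after TMM scaling, where Crat was the only member so separated, against 3.88% of all tested genes. Cpt1b, the muscle enzyme of the outer membrane and rate-limiting step of entry, had 533, 497, 575 and 567 CPM in NECA-treated MI mice, 545, 502 and 366 CPM in MI mice and 519, 561 and 404 CPM in sham vehicle mice, with complete overlap apart from MI mouse 3. Mlycd, which removes the malonyl-CoA that inhibits Cpt1b, ranged over 62.5 to 108 CPM.

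For NECA-treated MI against MI mice, Slc25a20 gave a log2 fold change of 0.55 ± 0.22 (SE, unadjusted p = 0.021, adjusted p = 0.79 by edgeR). By edgeR, Cpt2 gave 0.46 ± 0.20 (unadjusted p = 0.029), Crat 0.33 ± 0.19 (unadjusted p = 0.092) and Ppara 0.64 ± 0.38 (unadjusted p = 0.11), with adjusted p of 0.79 to 0.83. With Acsl1, these were the 5 members of smallest p. Of all 34 members, 3 had an unadjusted p under 0.05, where 6.07% of all tested genes did. Without MI mouse 3, the values were 0.37 for Slc25a20, 0.22 for Cpt2, 0.10 for Crat and 0.17 for Ppara.

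In MI against sham vehicle mice, Cpt2 had the smallest p of the members, with a log2 fold change of -0.51 ± 0.21 (SE, unadjusted p = 0.023, adjusted p = 0.36 by edgeR). By edgeR, Slc25a20 gave -0.47 ± 0.23 (unadjusted p = 0.056), Plin5 -0.59 ± 0.30 (unadjusted p = 0.076) and Crat -0.36 ± 0.20 (unadjusted p = 0.085), with adjusted p of 0.43 to 0.48. Only Cpt2 of the 34 members had an unadjusted p under 0.05, against 12% of all tested genes. Without MI mouse 3, Cpt2 gave -0.27, Slc25a20 -0.29, Plin5 -0.25 and Crat -0.13.

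**Figure D3:**
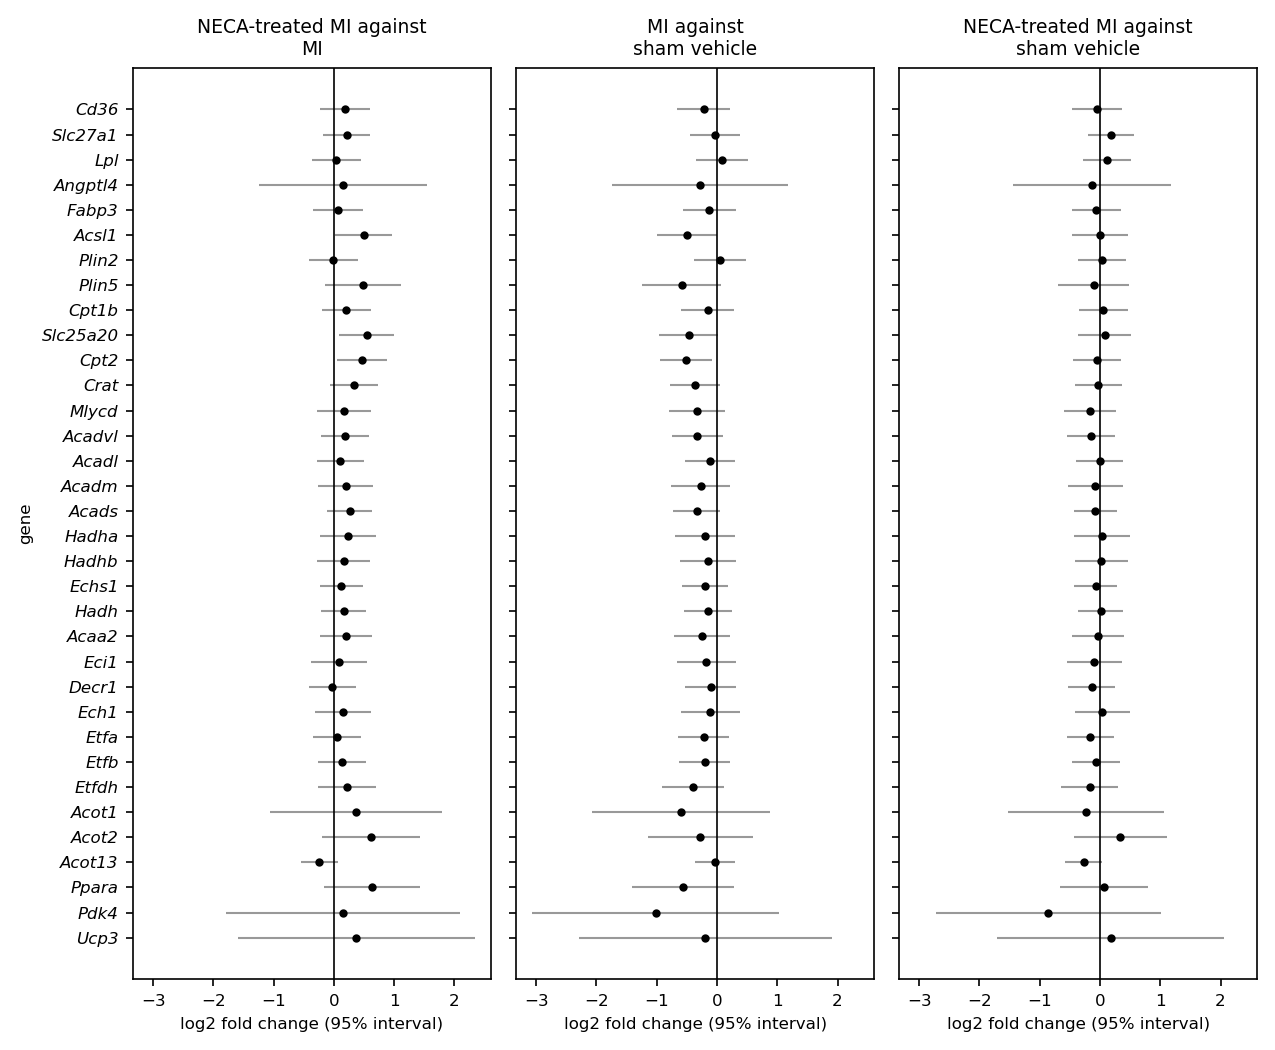
Log2 fold change of each of the 34 genes (rows, same order in each panel) with its 95% interval from edgeR's fit, for NECA-treated MI against MI mice, MI against sham vehicle mice and NECA-treated MI against sham vehicle mice. Points lie right of 0 for 31 genes in the first panel, left of 0 for 32 in the second and on both sides in the third, and nearly all intervals include 0. Intervals of Angptl4, Acot1, Pdk4 and Ucp3 are the widest.

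The acyl-CoA dehydrogenases, which start each turn of the cycle on chains of decreasing length, spanned log2 fold changes from 0.10 to 0.26 in NECA-treated MI against MI mice and -0.34 to -0.11 in MI against sham vehicle mice, and none of the 4 passed. Acadm, the medium-chain enzyme, had 748, 706, 802 and 765 CPM in NECA-treated MI mice, 765, 749 and 462 CPM in MI mice and 872, 778 and 603 CPM in sham vehicle mice. The levels of NECA-treated MI mice lay inside those of sham vehicle mice, and MI mice 1 and 2 did too. Acadvl, Acadl and Acads, for very long, long and short chains, had 508 to 824 CPM, 486 to 748 CPM and 107 to 181 CPM over all mice, with MI mouse 3 lowest for each.

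The enzymes from hydration to thiolysis had a narrower range of differences, 0.12 to 0.24 in NECA-treated MI against MI mice and -0.24 to -0.15 in MI against sham vehicle mice, and none of the 5 passed. Hadha and Hadhb, the subunits of the trifunctional protein that handles long chains, had 603 to 1175 CPM and 691 to 1163 CPM. Echs1, Hadh and Acaa2, which hydrate, oxidise and cleave shorter chains, had 171 to 259.9 CPM, 310.5 to 482 CPM and 388 to 697 CPM. The lower end of each range was MI mouse 3, and for all 5 genes the 1st library of that mouse was also below the 9 other mice. For Hadha alone, the 1st library of MI mouse 2, at 745 CPM, was below the libraries compared of those 9 mice too.

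The auxiliary enzymes for unsaturated fatty acids had 0 of 3 members past the threshold, and so had electron transfer. Eci1, Decr1 and Ech1, which move or reduce double bonds, gave log2 fold changes of 0.08 ± 0.22, -0.03 ± 0.19 and 0.15 ± 0.22 (SE) for NECA-treated MI against MI mice. The electron transfer flavoprotein genes Etfa and Etfb, and Etfdh, which passes the electrons on to the respiratory chain, gave 0.06 ± 0.19, 0.14 ± 0.19 and 0.22 ± 0.23. Etfdh had 389.6, 383, 425 and 432 CPM in NECA-treated MI mice, 386, 438 and 218 CPM in MI mice and 456, 464 and 389 CPM in sham vehicle mice, and only MI mouse 3 lay outside the range of the other groups.

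The thioesterases, which hydrolyse acyl-CoA back to free fatty acid, did not move as a block. Acot13 had 146, 159, 122 and 149.7 CPM in NECA-treated MI mice, 149, 178 and 192 CPM in MI mice and 167, 164 and 169 CPM in sham vehicle mice. All 4 NECA-treated MI mice were below all 3 sham vehicle mice, also after TMM scaling, where Acot13 was the only member so separated, against 4.29% of all tested genes. By share of counts MI mouse 3 was the highest of all mice. Acot13 gave the smallest p of the members in NECA-treated MI against sham vehicle mice, with a log2 fold change of -0.27 ± 0.15 (SE, unadjusted p = 0.082, adjusted p = 0.84 by edgeR). The next 4 were Pdk4 with -0.86 ± 0.79, Slc27a1 with 0.18 ± 0.18, Acot2 with 0.34 ± 0.35 and Etfa with -0.16 ± 0.19, at unadjusted p of 0.31 to 0.40 and adjusted p of 0.94 to 0.95. None of the 34 members had an unadjusted p under 0.05 there, against 6.03% of all tested genes.

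Acot2, the mitochondrial thioesterase, had 43.7, 36.6, 67.6 and 76.3 CPM in NECA-treated MI mice, 43.5, 38.1 and 28.1 CPM in MI mice and 36.9, 59.4 and 29.1 CPM in sham vehicle mice. NECA-treated mice 3 and 4 had the highest levels of all mice, and NECA-treated mice 1 and 2 lay among the others. NECA-treated MI mouse 4, which held the most skeletal muscle transcripts, was the highest mouse by share of counts for 9 of the 34 members. Sham vehicle mouse 2, with Myh1, Myh2 and Myh4 at 0 CPM, was the highest for 10. After TMM scaling, NECA-treated MI mouse 4 was the highest for 6 members, and sham vehicle mice 1 and 2 for 11 each. The part of skeletal muscle transcripts was not tested. Acot1, its cytosolic relative, had 7.95, 5.69, 14.5 and 3.77 CPM in NECA-treated MI mice, 7.11, 10.3 and 1.04 CPM in MI mice and 6.003, 16.5 and 3.93 CPM in sham vehicle mice, from 1 to 22 counts. Acot1 and Acot2 are near-identical neighbouring genes, and how the authors' estimated counts divided reads between them is uncertain.

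Ppara, the nuclear receptor that drives much of the pathway in heart, was lowest in MI mouse 3 and lay between 11.3 and 22.6 CPM in the other 9 mice. It had 16.7, 14.6, 14.5 and 22.6 CPM in NECA-treated MI mice, 17.8, 11.3 and 3.13 CPM in MI mice and 13.7, 14.3 and 18.9 CPM in sham vehicle mice. The value of MI mouse 3 rested on 3 counts, and the 1st libraries gave 1.56 CPM for MI mouse 2, whose 2nd library gave 11.3 CPM, and 3.94 CPM for MI mouse 3. The difference between the 1st and 2nd libraries, a log2 value of -1.47 ± 0.70 (SE) over both mice, had an unadjusted p of 0.036 and an adjusted p of 0.9998 by edgeR.

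Pdk4 and Ucp3 varied most between mice of the same group. Pdk4, a kinase that turns off pyruvate oxidation when fat is burnt, had 131, 107, 190.0 and 167 CPM in NECA-treated MI mice, 126, 222 and 44.8 CPM in MI mice and 71.2, 556 and 138 CPM in sham vehicle mice. Ucp3, a mitochondrial carrier whose gene responds to fatty acids, had 46.1, 30.1, 76.2 and 63.1 CPM in NECA-treated MI mice, 28.4, 81.3 and 14.6 CPM in MI mice and 14.6, 94.7 and 24.4 CPM in sham vehicle mice. Sham vehicle mouse 2 was the highest of all mice for both, and MI mouse 3 and sham vehicle mouse 1 the lowest. The sham vehicle group alone thus spanned nearly the whole range, and no group was separated from another. MI mouse 2, which held some skeletal muscle transcripts, was the next highest for both genes. NECA-treated MI mouse 4, which held the most, lay below MI mouse 2 and NECA-treated MI mouse 3 for both, at 167 and 63.1 CPM. Sham vehicle mouse 2, the highest, had Myh1, Myh2 and Myh4 at 0 CPM. The part of skeletal muscle transcripts was not tested. The SD of log2 CPM within groups was 1.09 for Pdk4 and 1.08 for Ucp3, against SDs of 0.10 and 0.19 that counting error alone gives at their mean counts.

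Leaving out sham vehicle mouse 2 turned several values of these fatty acid sensitive genes. Pdk4 in MI against sham vehicle mice gave -1.01 ± 0.87 (SE) with it and 0.36 without it, and Ucp3 gave -0.19 ± 0.89 and 1.08. In NECA-treated MI against sham vehicle mice, Pdk4 gave -0.86 ± 0.79 and 0.51, and Ucp3 0.18 ± 0.80 and 1.44. In NECA-treated MI against MI mice, the 95% interval of Pdk4 was -1.79 to 2.10, so a change of 2-fold in either direction was not detectable with these mice.

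**Figure D4:**
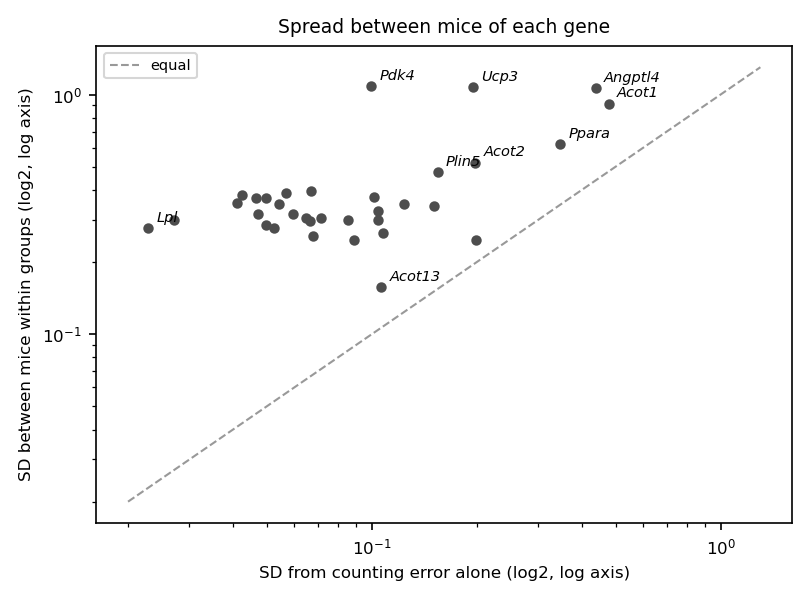
SD of log2 CPM between mice within groups (vertical, log axis) against the SD that counting error alone would give at the gene's mean count (horizontal, log axis), 1 point for each of the 34 genes, with the dashed line at equality. Pdk4, Ucp3, Angptl4, Acot1 and Ppara have the widest spread, 0.62 to 1.09, and the other 29 genes lie between 0.16 and 0.52. Of these 5, Pdk4 lies farthest above the line.

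The levels of Pdk4 and Ucp3 are set side by side as a description, since the pair was singled out after its values were seen, as the highest of 33 relations of Pdk4 with the other members, 32 of them positive, and no test is given. Over the 10 mice, Pearson's r of their log2 CPM was 0.90 and Spearman's rho was 0.95. Without sham vehicle mouse 2 and MI mouse 3, the farthest from the median of Pdk4, r was 0.93 over 8 mice, and after subtracting group means it was 0.97. Among the 9504 other tested genes, none had a higher r with Pdk4 than Ucp3, and 5, Ucp3 included, had an r at least as large in size of either sign. Acot1 came next among the members with r of 0.83, but without those mice its r was 0.45, so that relation rests on them. Most other positive relations also shrank without them, and several turned negative, such as Acads at -0.44 and Cpt2 at -0.41. Slc27a1 instead rose from 0.57 to 0.81.

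**Figure D5:**
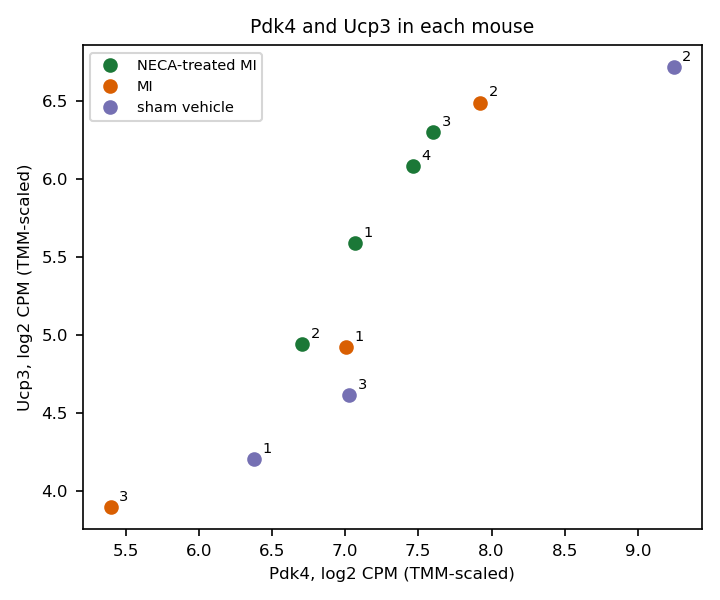
Log2 CPM after TMM scaling of Ucp3 (vertical) against Pdk4 (horizontal), 1 point per mouse, coloured by group and labelled with the mouse number. Points of all 3 groups follow 1 rising line (r = 0.90 over 10 mice), with sham vehicle mouse 2 at the top right and MI mouse 3 at the bottom left.

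Promoter sequence was read because these genes share a known regulator type: PPARs bind, with a partner receptor, to direct repeats of the hexamer AGGTCA set 1 base apart. In the RefSeq promoters of build GRCm38.p6, from 250 bases before to 50 after the gene start, 27 of the 34 members had an entry, with 31 promoters. The hexamer on either strand occurred in 8 of these 31 promoters (25.8%), from 7 genes, and in 16.3% of all 32851 promoters. The repeat AGGTCANAGGTCA on either strand, which contains the hexamer, occurred in 0 of the 31 and in 0.0396% of all. Windows of 30 bases around the hexamer, in capitals on the strand of the gene (TGACCT where it lies on the opposite strand), are shown for Ucp3, a member of wide spread, and for members of uptake, storage and oxidation.
Ucp3, 149 bases before the start, chr7:100472830-100472859, plus strand: ttaaagagccccAGGTCAcggaagctaaac
Ucp3, 44 bases before the start, chr7:100472935-100472964, plus strand: gaattaggtttcAGGTCAgctggtgcacag
Cd36, 228 bases before the start, chr5:17836107-17836136, minus strand: ctctgcactttaTGACCTgagattttcagg
Plin5, 170 bases before the start, chr17:56117701-56117730, minus strand: agtcctagtctgAGGTCAgccatggtgact
Acadvl, 87 bases before the start, chr11:70015498-70015527, minus strand: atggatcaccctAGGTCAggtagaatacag
A match of letters is a description and not a binding site, and members with the hexamer include genes of wide spread (Ucp3) and of narrow spread (Acadvl, SD 0.28).

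Over all 34 members, the log2 fold change was above 0 for 31 genes in NECA-treated MI against MI mice, with a median of 0.18, where 51.5% of all tested genes lay below 0 and their median was -0.01. In MI against sham vehicle mice it was below 0 for 32 members, with a median of -0.22, where 50.9% of all tested genes lay below 0 and their median was -0.01. In NECA-treated MI against sham vehicle mice it was below 0 for 22 members, with a median of -0.05, where 52.1% of all tested genes lay below 0. The comparisons share mice, so the opposite directions of the first and second are not independent: both use the 3 MI mice.

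The directions in both comparisons with MI mice changed when MI mouse 3 was left out. It was the lowest of 10 mice by share of counts in 27 of the 34 members, and in 13.7% of all tested genes (1302 of 9505). The 27 included all 5 of the carnitine shuttle, all 4 dehydrogenases, all 5 from hydration to thiolysis and all 3 of electron transfer, and in 23 members both libraries of this mouse were below the 9 other mice. The exceptions were Lpl, Angptl4, Fabp3, Plin2, Ech1, Acot13 and Ucp3. In the count of 23, the 1st library of MI mouse 3 was set against libraries of the common depth. For some of these members, such as Crat, Acsl1 and Hadha, the 1st library of MI mouse 2 was also below those libraries, at 282, 426 and 745 CPM. For such members, a low level in the 1st library cannot be told apart from a difference between library types. Without MI mouse 3, 13 members lay above 0 and 21 below in NECA-treated MI against MI mice, with a median of -0.04, and 16 above and 18 below in MI against sham vehicle mice, with a median of -0.02. The mouse that held the most fibroblast and macrophage marker counts was the one with the lowest fatty acid genes, in a group of 3, and the part of its cell makeup was not tested. The share of counts from mitochondrially encoded genes was also lowest in the 2 mice with the lowest members, at 17.9% in MI mouse 3 and 19.9% in sham vehicle mouse 3, against 21.6% to 24.7% in the other 8 mice. As a share of the remaining counts, the members took 1.54% in MI mouse 3 and 1.85% in sham vehicle mouse 3, against 2.17% to 2.49% in the other 8 mice. With mitochondrially encoded genes left out of the fit, the members' median was 0.17 in NECA-treated MI against MI mice and -0.21 in MI against sham vehicle mice. The part of tissue or RNA quality in these values was not tested.

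Sham vehicle mouse 3 was the other low mouse, among the lowest 2 for 13 members by share of counts and for 22 after TMM scaling. The median over the members of log2 CPM minus the sham vehicle mean was -0.07, -0.19, 0.05 and 0.11 in NECA-treated MI mice, -0.06, 0.09 and -0.78 in MI mice, and 0.16, 0.16 and -0.37 in sham vehicle mice. Apart from MI mouse 3, the infarcted mice lay inside the range of the sham vehicle mice. The lower end of that range was sham vehicle mouse 3 alone, the mouse with high atrial and adipocyte markers. All infarcted mice lay below sham vehicle mice 1 and 2. Without sham vehicle mouse 3 alone, the members' median in MI against sham vehicle mice was -0.40, with 32 of 34 below 0. In NECA-treated MI against sham vehicle mice it was then -0.19, with 29 of 34 below 0. Without both MI mouse 3 and sham vehicle mouse 3, the members' median was -0.04 in NECA-treated MI against MI mice, -0.18 in MI against sham vehicle mice (31 of 34 below 0) and -0.20 in NECA-treated MI against sham vehicle mice (29 of 34 below 0), and again no member passed.

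Other genes of fat and mitochondrial metabolism, in 4 lists of 96 genes of which 92 were tested, also had none past the threshold in any comparison. The 13 regulators were genes of the PPAR, PGC-1 and ERR families, with Rxra, Rxrb, Rxrg, Nrip1, Prkaa1 and Prkaa2. Of the 13, 11 had a log2 fold change above 0 in NECA-treated MI against MI mice and 11 below 0 in MI against sham vehicle mice. The 2 of smallest p in NECA-treated MI against MI mice were Esrra, a nuclear receptor of mitochondrial genes, with 0.34 ± 0.18 (SE), and Prkaa2, a catalytic subunit of the energy sensor AMPK, with 0.38 ± 0.22. Of 22 tested genes of lipid uptake and triglyceride turnover, 11 lay above and 11 below 0, with a median of -0.01. Plin4, a droplet coat protein, gave 0.48 ± 0.18 and Dgat2, which makes triglyceride, 0.47 ± 0.18.

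Of 35 tested genes of further mitochondrial and peroxisomal oxidation, 22 lay above 0 in NECA-treated MI against MI mice. Acot11, another thioesterase, gave 0.65 ± 0.23 (unadjusted p = 0.0088, adjusted p = 0.79 by edgeR), and Bdh1, which oxidises the ketone body β-hydroxybutyrate, 0.60 ± 0.26. All 22 genes of the citric acid cycle lay above 0, with a median of 0.14, and 21 of 22 below 0 in MI against sham vehicle mice, with a median of -0.24. Sdhc and Sdha, subunits of succinate dehydrogenase, gave 0.24 ± 0.15 and 0.32 ± 0.20. By share of counts, the cycle genes took 1.34%, 1.38%, 1.41% and 1.42% in NECA-treated MI mice, 1.34%, 1.41% and 0.95% in MI mice, and 1.43%, 1.40% and 1.32% in sham vehicle mice, so MI mouse 3 was the lowest here too. How far the directions of the genes in these lists depend on MI mouse 3 was not tested.

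The 1st and 2nd libraries of the same mice differed in depth and in the genes listed together, so the effects of each on the values cannot be told apart. Between the 1st and 2nd libraries of MI mice 2 and 3, edgeR called 25 of 14710 genes and 0 of the 34 members. For MI mouse 2, Hadha gave 745 CPM (1st library) and 1084 CPM (2nd library), Lpl 5342 and 4043 CPM, and Acadm 1028 and 749 CPM. For MI mouse 3, whose libraries were closer to each other, Hadha gave 593 and 603 CPM, Lpl 2594 and 2866 CPM, and Acadm 432 and 462 CPM. With 1st libraries in place of 2nd ones, 23 members lay above 0 and 11 below in NECA-treated MI against MI mice, and the median was 0.05, against 0.18 with the 2nd libraries.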

How the data were processed

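Total RNA was converted to 3′ libraries by a modified CEL-Seq2 protocol, amplified without pooling samples, per the labels' protocols. FastQC 0.11.9, STAR and RSEM were used on GRCm39, per the submitters' processing notes. No source used here gives the annotation release, the use of molecular identifiers or the strand setting. The authors deposited expected counts (estimated counts of RSEM) per gene as whole numbers, and log2(TPM + 1), which divides 3′ end reads by gene length. Of 57054 rows, 306 had values only in the 1st libraries and 101 lacked them only there, and the 56647 others were used. GENCODE M21 names covered 52029. Estimated counts share out reads of near-identical sequences, so Acot1 and Acot2, and Fabp3 with its pseudogene Fabp3-ps1 at 17.7 to 48.9 CPM, are uncertain.

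The mouse was the replicate, and MI mice 2 and 3 entered by their 2nd libraries. The test was that of edgeR 4.0.16 in R 4.3.3 (filterByExpr, TMM, robust quasi-likelihood, 1 fit over 10 mice, two-sided, Benjamini-Hochberg over 9505 genes). Libraries held 959840 to 1330259 counts, and 3 counts, the limit that a count of 0 allows, were 3.13 CPM in the smallest. Such limits and counting errors cover counting error only. Errors of fold changes are standard errors, with 95% intervals from the fit. Summed 1st and 2nd libraries, 1st libraries alone, other scalings, DESeq2 1.42.0, limma 3.58.1 on log2(TPM + 1), no filter, a replicate block, single comparisons and leaving out mice were alternatives. The members, gene lists and tests were chosen with earlier results of these data known. All members are named, and of other list genes the 2 of smallest p in NECA-treated MI against MI mice, since none passed. For each comparison the 5 members of smallest p are given with statistics. Promoters came from RefSeq on GRCm38.p6, another build than that of the counts, matched by symbol.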

Additional observations from a re-analysis of the deposited data

Results flagged for a closer look

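Within the 4 NECA-treated MI mice, 1 of the 34 members had a mouse that stood apart from the others by Dixon's test at its 95% critical value. The test was run on levels by share of counts only. Echs1, the mitochondrial enoyl-CoA hydratase, had 259.9 CPM in NECA-treated MI mouse 4, against 224, 221 and 224 CPM in NECA-treated MI mice 1, 2 and 3. After TMM scaling, its log2 CPM was 8.10 in mouse 4, against 7.83, 7.75 and 7.84 in mice 1, 2 and 3. Whether mouse 4 stands apart on that scale was not tested. Chance gives such a gap in about 1 in 20 independent groups. The 34 members were measured in the same 4 mice and are not independent, so 1 in 34 cannot be judged against that rate. This mouse also held skeletal muscle transcripts, with Myh4 at 97.9 CPM and Myh1 at 91.4 CPM, against 0 CPM and at most 0.86 CPM in the other NECA-treated MI mice, and their part in the Echs1 value was not tested.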

How the results depend on the processing

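None of the 34 members passed the threshold under any of the 21 alternatives, in any comparison. The smallest adjusted p of a member over all settings was 0.37 in NECA-treated MI against MI mice, 0.15 in MI against sham vehicle mice and 0.077 in NECA-treated MI against sham vehicle mice. The 0 calls among all genes in NECA-treated MI against MI mice by edgeR stood beside 577 genes at an unadjusted p under 0.05, and DESeq2 also made 0 calls, with 266 genes at that p. Member fold changes differed in sign from the reported ones in 66 of 712 values of NECA-treated MI against MI mice, 46 of 712 of MI against sham vehicle mice and 91 of 712 of NECA-treated MI against sham vehicle mice. In NECA-treated MI against sham vehicle mice, 12 members lay above 0 in the fit reported, 21 when library totals alone scaled the counts and 26 with limma on log2(TPM + 1), so the direction in that comparison depends on scaling; the cause was not tested. It also depends on 1 sham vehicle mouse, with 22 members above 0 without mouse 1, 25 without mouse 2 and 5 without mouse 3.

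The count of all genes past the threshold moved more, and the cause was not tested. In NECA-treated MI against MI mice it was 0, and 8 with no filter on low counts, 1 with summed libraries, 1 with 1st libraries, and 0 to 2 when leaving out 1 mouse (2 without MI mouse 1). In MI against sham vehicle mice it was 7, and 191 with no filter, 15 with summed libraries, 12 with 1st libraries, 0 with limma, 0 with the 2 groups alone, 69 without MI mouse 3 and sham vehicle mouse 3 (chosen after seeing the data), and 0 to 50 when leaving out 1 mouse. In NECA-treated MI against sham vehicle mice it was 1, and 43 with no filter, 4 with library totals only, 6 with DESeq2, 0 with limma, 0 with summed and 0 with 1st libraries, 7 with the 2 groups alone, 242 without both mice, and 0 to 7 when leaving out 1 mouse. The correlation of Pdk4 and Ucp3 ranged from 0.86 to 0.92 when leaving out 1 mouse, and was 0.89, 0.845 and 0.87 with library totals, log2(TPM + 1) and 1st libraries.

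Deviations of same-numbered mice from their group means correlated at -0.23 to 0.19 over genes. Mice of different numbers were not compared in this way, so whether the mouse numbers pair the groups is not settled. A fit with the replicate number as a block gave member medians of 0.21, -0.23 and -0.05 in the 3 comparisons and 4 genes past the threshold in NECA-treated MI against sham vehicle mice. At these depths Acot1, Angptl4 and Ppara, with 0 to 24 counts per library, are limited by counting.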
